A study of Mus musculus with 12 samples.

Results

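The response of Ppargc1a-deficient microglia to MPTP was measured by RNA-seq as the difference between the profile labelled KO MPTP 2 and the profiles labelled KO PBS 1 and KO PBS 2. Rows of the deposited table were summed per gene symbol, and genes with at least 1 FPKM in at least 2 of these 3 profiles were kept, which left 10601 of 21135 genes. FPKM count fragments relative to transcript length and to the library's total. The 3 profiles are 3 of 12 columns, 3 in each of 4 groups. The deficient animals, called KO here, are labelled Ppargc1a FF CreER, and the control animals, called WT, Ppargc1a FF. Both genotypes therefore carry the floxed Ppargc1a allele, and all samples are labelled 6 weeks post Tamoxifen, the drug that activates CreER. The promoter that drives CreER is not given in the sources used here, nor are age, the toxin's dose or the number of animals behind a sample. The treatments are MPTP and the vehicle PBS, and the cells are primary microglia of the midbrain, sorted by flow cytometry.

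PGC-1alpha, the protein of Ppargc1a, is a transcriptional coactivator. It has no DNA-binding domain of its own and works through partners such as the nuclear respiratory factors, the estrogen-related receptors and the PPARs, and is known for raising the expression of mitochondrial and antioxidant genes. MPTP is converted in the brain to a complex I inhibitor that is taken up by dopaminergic neurons and kills them. Microglia, the resident macrophages of the brain, react to dying neurons with cytokine and chemokine release, much of it under the transcription factor NF-kB.

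Ppargc1a itself was near 0 in the deficient profiles. It was at 0.33 FPKM in KO PBS 1, 0.12 in KO PBS 2 and 0.42 in KO MPTP 2, against 5.70 and 6.21 FPKM in WT PBS 1 and 2 and 2.72 in WT MPTP 1. The KO libraries all lay below the WT libraries. With so low a value the gene, whose row is among the departing ones described next, did not enter the test of MPTP in KO animals.

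Not all columns are separate measurements. KO MPTP 1 lay 2.0% above KO PBS 2, which carries the other treatment's label, within 0.0101 FPKM in all but 46 of 67355 rows, and in 99.5% of the 5206 rows of at least 10 FPKM. Column 3 of both KO groups followed columns 1 and 2 in every row within 0.00995 FPKM, the limit that rounding allows. KO MPTP 1 and both columns 3 were therefore not used as replicates, and the treatment behind KO PBS 2 is uncertain. The 46 rows in which KO MPTP 1 departed from KO PBS 2 belonged to 40 genes, of which 37 were among the genes tested. In 41 of the 46 rows KO MPTP 1 lay nearer to KO MPTP 2 than KO PBS 2 did. KO MPTP 2 itself lay above both KO PBS values in 16 of these rows, below both in 28 and between them in 2. The sizes of the departures ran from 0.0976 to 112 FPKM, with a median of 2.60, and of the 37 of at least 0.9 FPKM, 25 lay within 0.05 of a whole number, a tolerance chosen after the values were seen. How the values of these rows came about was not tested. Genes with such a row, or with a like row in the WT columns, are called departing genes here and all other genes regular ones.

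**Figure D1:**
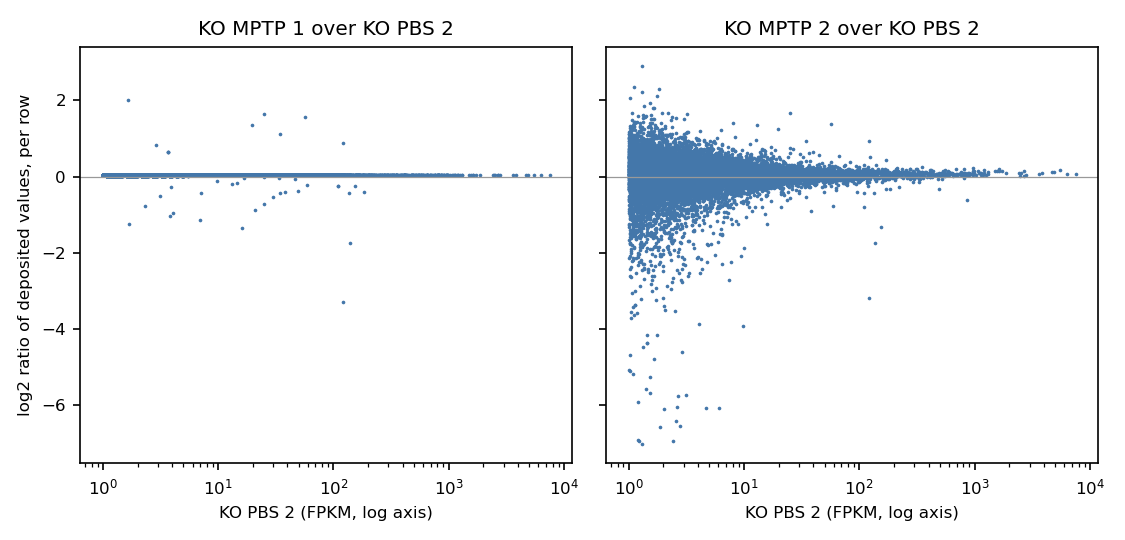
Each point is a row of the deposited table with at least 1 FPKM in KO PBS 2 and a value above 0 in the other column. The log2 ratio of KO MPTP 1 (left) or KO MPTP 2 (right) to KO PBS 2 is drawn against KO PBS 2 in FPKM on a log axis. On the left all but the departing rows form 1 line at 2.0% above KO PBS 2, whereas on the right the rows scatter, more widely at low values.

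The cells expressed macrophage genes. Csf1r, the receptor for the macrophage growth factor CSF1, was at 112.25, 110.13 and 121.37 FPKM in KO PBS 1, KO PBS 2 and KO MPTP 2, and Cd68, a lysosomal macrophage protein, at 461.61, 450.49 and 483.95 FPKM. All 12 macrophage and microglia markers in the table passed the filter. Of 20 genes of homeostatic microglia, 8 were under 1 FPKM in the mean of the KO profiles. Among them, the purinergic receptor gene P2ry12 was at 0.19, 0.15 and 0.26 FPKM, the fractalkine receptor gene Cx3cr1 at 0.05, 0.05 and 0.04, and Sall1, a transcription factor of microglial identity, at 0 in all 3. The labelled cell type thus had its macrophage genes but lacked several of the genes that set resting microglia apart. Of the 10 lymphocyte markers, 3 erythroid markers and 5 neuron markers in the table, none reached the filter. Their summed levels in the 3 profiles ran from 0.57 to 0.71, 0.16 to 0.23 and 0.87 to 1.00 FPKM. Other lists had members that passed it. Of 6 astrocyte markers 2 passed, Aldoc (78.37, 74.06 and 84.42 FPKM) and Aldh1l1 (2.73, 2.82 and 3.13). Of 9 oligodendrocyte and precursor markers 2 passed, Cnp (7.36, 6.99 and 7.22) and Mbp (1.03, 0.73 and 1.01). Of 8 endothelial and mural markers 1 passed, Flt1 (83.46, 81.97 and 90.25). Markers of other myeloid cells were mixed. Of 9 granulocyte markers present, 6 were under 1 FPKM in the KO mean, with Ly6g at 0, while the chemokine receptor gene Cxcr2 was at 19.95, 18.78 and 20.89 FPKM. Of 10 border macrophage and monocyte markers 6 were under 1 FPKM, with Plac8 at 0, while the mannose receptor gene Mrc1 was at 160.75, 143.08 and 159.72 FPKM and the platelet factor gene Pf4 at 185.65, 170.98 and 189.81 FPKM.

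Each gene was tested with limma on log2(FPKM + 1) in 1 fit over 6 separate profiles: the 3 KO profiles, WT PBS 1 and 2 and WT MPTP 1. A gene was called when its Benjamini-Hochberg adjusted p was under 0.05 and KO MPTP 2 lay outside both KO PBS values. KO MPTP and WT MPTP are each a single profile, so the spread comes from the PBS pairs. KO MPTP 2 and WT MPTP 1 are assumed to vary like them. An exact permutation test of 1 profile against 2 cannot give a p under 0.333. Fold changes are log2 differences with the standard error (SE) of the fit, and understate the change of low genes.

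In KO MPTP 2, 28 genes (0.264% of those tested) were called higher and 9 (0.0849%) lower. The genes with the largest changes were the glucose transporter gene Slc2a1, the cytokine gene Tnf and the chemokine gene Ccl2 among those that rose, and the superoxide dismutase gene Sod1, the ATP synthase gene Atp5a1 and the NF-kB subunit gene Rela among those that fell. All 6 are departing genes. Departing genes made up 6 of the 28 higher and 8 of the 9 lower calls, while 25 other departing genes tested were not called. An unadjusted p under 0.05 was reached by 1148 genes. The counts depended on the scaling and on single libraries. After rescaling each profile by its median ratio 7 genes were higher and 8 lower, and after quantile normalization 3 and 6. Without KO PBS 1 the counts were 5 and 6, and without WT PBS 1 or WT PBS 2, which contribute only to the spread, 6 and 7 in each case. With KO PBS 2 counted as MPTP, as its copy under KO MPTP 1 would have it, 2 genes were higher and 0 were lower. The 2 were Cct5 and a predicted gene, neither of them among the 28 above.

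**Figure D2:**
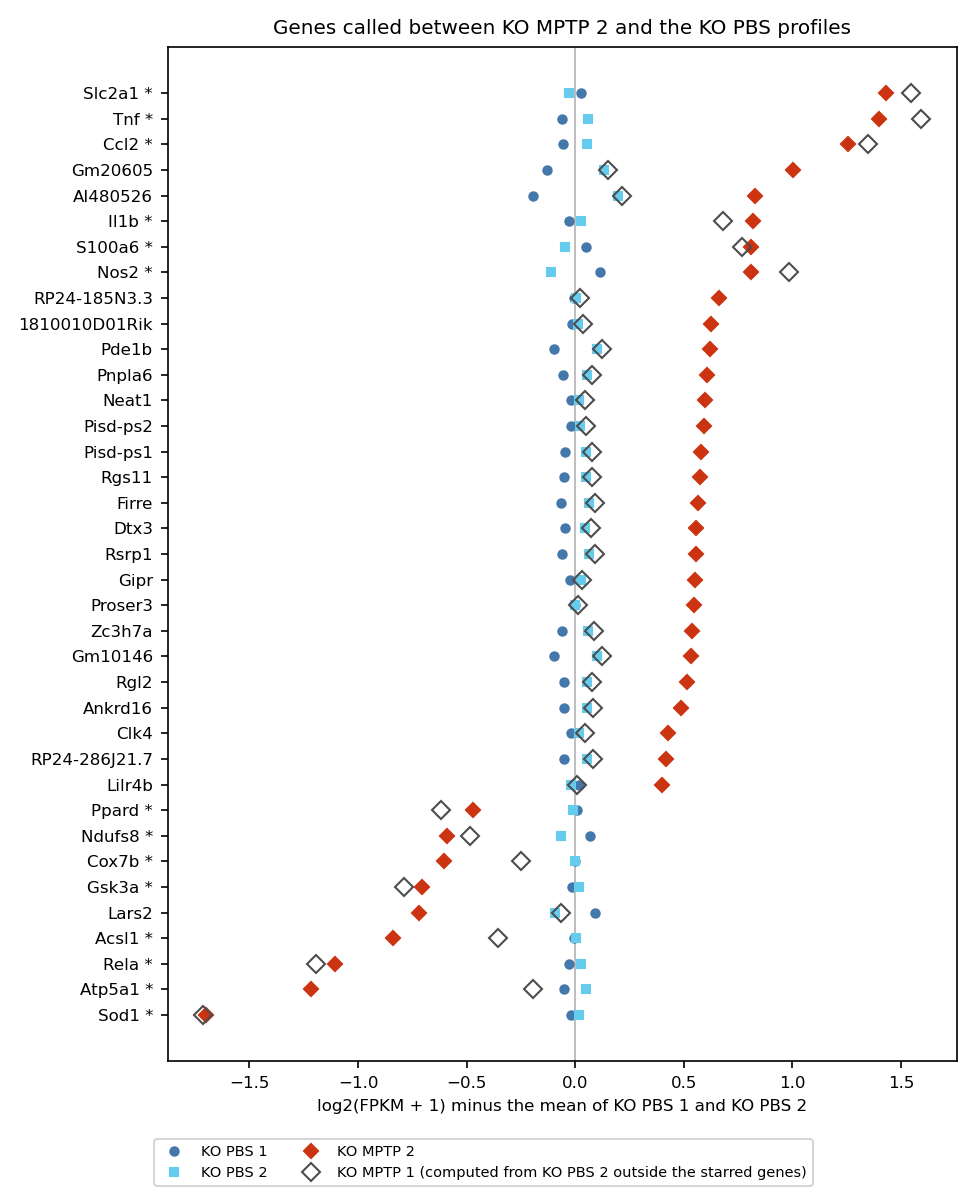
For each of the 37 called genes, log2(FPKM + 1) is drawn as the difference from the mean of KO PBS 1 and KO PBS 2, for KO PBS 1 (circle), KO PBS 2 (square), KO MPTP 2 (filled diamond) and KO MPTP 1 (open diamond). Stars mark the departing genes. In regular genes KO MPTP 1 sits on KO PBS 2, and in the 14 starred genes it lies on the same side as KO MPTP 2.

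Of 17 tested genes of cytokines and inflammatory enzymes, 3 rose, none fell and 14 did not pass the test. Over all genes tested, 0.264% were called higher. The 3 that rose are the departing genes among the 17. Tnf, which encodes the cytokine tumor necrosis factor, was at 1.45 and 1.66 FPKM in KO PBS 1 and 2 and at 5.73 in KO MPTP 2. Its log2 fold change was 1.40 (SE 0.11, adjusted p = 0.000267). Il1b, which encodes interleukin-1 beta, was at 2.79 and 2.94 FPKM after PBS and at 5.81 in KO MPTP 2. The log2 fold change of Il1b was 0.82 (SE 0.10, adjusted p = 0.00678). Nos2, the inducible nitric oxide synthase gene, was at 40.81 and 34.71 FPKM after PBS and at 66.62 in KO MPTP 2, a log2 fold change of 0.81 (SE 0.10, adjusted p = 0.0101). The call of Nos2 held in 9 of 16 alternatives, and was lost under median rescaling (adjusted p = 0.106), under quantile normalization and without WT PBS 1 or WT PBS 2. Il1b lost its call under quantile normalization and without KO PBS 1. KO MPTP 2 lay above both PBS profiles in all 3 genes, which a call requires. All 3 are departing genes, and KO MPTP 1 also lay above both PBS profiles, at 6.70 FPKM for Tnf, 5.19 for Il1b and 75.40 for Nos2. The median log2 fold change of the 17 genes was 0.08, or 0.07 without the departing genes, against 0.08 for all genes tested. Among members that did not pass, the interleukin-1 alpha gene Il1a was at 30.19, 27.79 and 30.32 FPKM and the prostaglandin synthase gene Ptgs2 at 3.41, 3.67 and 3.81 FPKM in KO PBS 1, KO PBS 2 and KO MPTP 2.

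Of 11 tested chemokine and chemokine receptor genes, 1 rose. Ccl2, which encodes a chemoattractant of monocytes, was at 18.52 and 20.10 FPKM after PBS and at 47.40 in KO MPTP 2, with 50.70 in KO MPTP 1. Its log2 fold change was 1.25 (SE 0.18, adjusted p = 0.0186), and it is a departing gene. The call of Ccl2 was lost under median rescaling, under quantile normalization and without KO PBS 1. The related chemokine genes stayed near their PBS values. Ccl3 was at 45.18, 51.69 and 50.41 FPKM and Ccl7 at 3.61, 3.75 and 4.01 FPKM in KO PBS 1, KO PBS 2 and KO MPTP 2, and neither passed the test.

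The promoters of Tnf and Il1b are shown because they are the called cytokine genes with an entry in the RefSeq table used here (build GRCm38.p6). Nos2 and Ccl2 are named only. Each window holds 250 bases before and 50 bases after the transcript start, printed in the direction of transcription. The Tnf window is chr17:35201958-35202257 on the minus strand and the Il1b window chr2:129371090-129371389 on the minus strand. Capitals mark a TATA box (TATAAA) or an NF-kB motif (GGGNNNNNCC), searched on both strands, so that the latter can also appear as its reverse complement.
Tnf: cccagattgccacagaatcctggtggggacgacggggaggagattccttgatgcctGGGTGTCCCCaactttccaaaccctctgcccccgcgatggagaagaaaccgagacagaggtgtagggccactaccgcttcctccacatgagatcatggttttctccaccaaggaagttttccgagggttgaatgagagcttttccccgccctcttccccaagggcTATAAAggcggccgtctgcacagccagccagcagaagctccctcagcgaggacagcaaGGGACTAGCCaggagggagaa
Il1b: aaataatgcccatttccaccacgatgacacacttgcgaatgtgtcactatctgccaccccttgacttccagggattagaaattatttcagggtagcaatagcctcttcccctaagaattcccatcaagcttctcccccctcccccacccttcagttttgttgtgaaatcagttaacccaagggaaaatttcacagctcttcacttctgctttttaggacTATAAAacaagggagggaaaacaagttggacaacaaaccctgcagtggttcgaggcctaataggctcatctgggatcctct
The Tnf window held 2 NF-kB motifs, beginning 194 bases before and 29 bases after the start, and a TATA box 29 bases before it. The Il1b window held a TATA box 31 bases before the start and no NF-kB motif of these letters. Over 32851 promoter windows of the same length, 50.8% held the NF-kB motif and 13.6% the TATA box, so a match of either is common, and it is a description and not a binding site.

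Among 26 tested NF-kB subunits and regulators, 1 fell and none rose. Rela, which encodes the transactivating subunit p65, was at 15.35 and 15.97 FPKM after PBS and at 6.74 in KO MPTP 2, and KO MPTP 1 gave 6.29. The log2 fold change of Rela was -1.11 (SE 0.08, adjusted p = 0.000154). Relb, another subunit gene, was at 2.84, 3.83 and 1.55 FPKM in KO PBS 1, KO PBS 2 and KO MPTP 2 and did not pass the test (adjusted p = 0.0877). Both are departing genes. The other subunit genes and the inhibitor gene Nfkbia lay close to their PBS values, with Nfkb1 at 16.64, 17.97 and 18.19 FPKM and Nfkbia at 12.34, 12.02 and 12.46 FPKM. KO MPTP 2 lay above both PBS values in 22 of the 26 genes, beside 69.8% of all genes tested. After median rescaling, beside 33.7% of all genes tested, it did so in 11 of the 26. The median log2 fold change was 0.11, or 0.03 after median rescaling.

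Genes of oxidative phosphorylation mostly did not pass the test, and those that did fell. Of 37 tested complex I genes 1 fell, of 14 genes of complexes II and III 0, of 18 cytochrome c oxidase genes 1 and of 16 ATP synthase genes 1, with no rise in any of these lists. Of the complex II and III genes, 1 had an unadjusted p under 0.05 in limma. Atp5a1, the alpha subunit gene of the ATP synthase, was at 146.63 and 157.25 FPKM after PBS and at 64.69 in KO MPTP 2, a log2 fold change of -1.22 (SE 0.07, adjusted p = 2.77e-05). KO MPTP 1 gave 132.39 FPKM for Atp5a1, which lies nearer to the PBS values. Cox7b, a small subunit gene of cytochrome c oxidase, was at 219.23, 218.88 and 143.82 FPKM in KO PBS 1, KO PBS 2 and KO MPTP 2, with a log2 fold change of -0.60 (SE 0.07, adjusted p = 0.00327). Ndufs8, an iron-sulfur subunit gene of complex I, was at 37.99, 34.52 and 23.75 FPKM, with a log2 fold change of -0.59 (SE 0.08, adjusted p = 0.0188). The call of Ndufs8 held in 8 of 16 alternatives and was lost under quantile normalization and without KO PBS 1, WT PBS 1 or WT PBS 2, while that of Cox7b was lost without KO PBS 1. KO MPTP 2 lay below both PBS profiles in all 3 genes, which a call requires, and all 3 are departing genes. Cox6c, a further departing gene, was at 191.38, 137.91 and 104.40 FPKM, and the gap between its PBS profiles left it above the threshold (adjusted p = 0.125). The remaining subunits lay near or slightly above their PBS values. KO MPTP 2 lay above both PBS values in 28 of the 37 complex I genes, 11 of the 14 complex II and III genes, 15 of the 18 oxidase genes and 10 of the 16 ATP synthase genes, in a comparison where it did so in 69.8% of all genes tested. After median rescaling it lay above both in 33.7% of all genes tested and below both in 32.6%. In these lists, in the same order, it then lay above both in 6, 2, 7 and 2 genes and below both in 18, 7, 6 and 9. Their median log2 fold changes were between 0.05 and 0.09, beside 0.08 for all genes tested.

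Of 24 tested antioxidant and glutathione genes, 1 fell and none rose. Sod1, which encodes the cytosolic copper-zinc superoxide dismutase, had the largest change of all genes tested. It was at 134.89 and 138.22 FPKM after PBS, at 41.39 in KO MPTP 2 and at 40.99 in KO MPTP 1. The log2 fold change of Sod1 was -1.70 (SE 0.06, adjusted p = 1.04e-06), and its call held in 15 of 16 alternative analyses. Sod1 is a departing gene. The manganese enzyme of mitochondria, Sod2, was at 14.07, 14.60 and 12.19 FPKM in KO PBS 1, KO PBS 2 and KO MPTP 2, and the glutathione peroxidase gene Gpx1 at 376.85, 410.57 and 380.06 FPKM. Neither passed the test, and both are departing genes. The list's median log2 fold change was 0.04, below that of all genes tested, and -0.04 after median rescaling.

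The promoters of Sod1, Cox7b and Ndufs8, from the same RefSeq table and build, are shown. They are the called genes of the antioxidant and respiratory lists with an entry on the chromosomes searched. Not every chromosome was searched, and Atp5a1 is named only. The Sod1 window is chr16:90220512-90220811 on the plus strand, the Cox7b window chrX:106015450-106015749 on the plus strand and the Ndufs8 window chr19:3912725-3913024 on the minus strand. Capitals mark the same motifs as above.
Sod1: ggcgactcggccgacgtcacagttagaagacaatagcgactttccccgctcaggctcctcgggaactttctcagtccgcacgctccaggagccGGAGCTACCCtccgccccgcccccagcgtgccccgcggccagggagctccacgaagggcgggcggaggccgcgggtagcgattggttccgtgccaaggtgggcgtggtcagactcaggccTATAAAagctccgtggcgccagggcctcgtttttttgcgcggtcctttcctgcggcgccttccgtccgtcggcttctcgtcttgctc
Cox7b: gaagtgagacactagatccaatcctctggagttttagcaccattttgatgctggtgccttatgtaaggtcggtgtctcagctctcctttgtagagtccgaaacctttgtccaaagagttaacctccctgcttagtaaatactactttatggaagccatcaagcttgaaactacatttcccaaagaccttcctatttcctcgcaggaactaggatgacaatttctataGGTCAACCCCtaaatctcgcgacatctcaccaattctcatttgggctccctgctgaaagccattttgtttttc
Ndufs8: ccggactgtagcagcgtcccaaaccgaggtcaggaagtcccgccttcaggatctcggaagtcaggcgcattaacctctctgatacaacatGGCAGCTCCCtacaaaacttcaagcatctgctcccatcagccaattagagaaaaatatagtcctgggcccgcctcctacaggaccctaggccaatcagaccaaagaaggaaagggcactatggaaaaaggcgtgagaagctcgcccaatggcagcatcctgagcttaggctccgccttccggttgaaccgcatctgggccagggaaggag
Each of the 3 windows held 1 NF-kB motif, beginning 157 bases before the start in Sod1, 23 in Cox7b and 160 in Ndufs8, and Sod1 had a TATA box 37 bases before the start. None of the 5 windows, Tnf and Il1b included, held the AP-1 motif TGANTCA, the NRF1 core CGCATGCG or the ERR motif AAGGTCA. Of the 32851 windows searched, 7.81%, 1.87% and 4.72% held them.

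Metabolic genes changed singly. Slc2a1, which encodes the glucose transporter GLUT1, was at 85.23 and 81.97 FPKM after PBS and at 227.15 in KO MPTP 2, with 246.27 in KO MPTP 1. The log2 fold change of Slc2a1 was 1.43 (SE 0.07, adjusted p = 7.31e-06), and the 25 other tested genes of glucose transport and glycolysis did not pass the test. Acsl1, which activates long-chain fatty acids, was at 40.14, 40.46 and 22.10 FPKM in KO PBS 1, KO PBS 2 and KO MPTP 2 and fell by 0.84 on the log2 scale (SE 0.07, adjusted p = 0.000275). It was the called gene among 22 of fatty acid oxidation, and none of 19 genes of the tricarboxylic acid cycle was called, or had an unadjusted p under 0.05 in limma. Slc2a1 and Acsl1 are departing genes.

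Among 18 tested PGC-1 coactivators and partner factors, 1 fell. Ppard, which encodes the nuclear receptor PPAR-delta, was at 27.32, 27.00 and 19.29 FPKM in KO PBS 1, KO PBS 2 and KO MPTP 2. Ppard's log2 fold change was -0.47 (SE 0.07, adjusted p = 0.0255), and its call held in 8 of 16 alternatives. The next lowest members did not pass the test. Rxra, the partner receptor of PPARs, was at 31.94, 30.61 and 23.62 FPKM (adjusted p = 0.0562), the mitochondrial transcription factor gene Tfam at 11.02, 11.81 and 8.58 FPKM (adjusted p = 0.108), and the nuclear respiratory factor gene Nrf1 at 7.76, 9.07 and 6.32 FPKM (adjusted p = 0.187). KO MPTP 2 lay below both PBS values in these 4 genes, which are the list's departing genes that passed the filter. The other two, Ppargc1a and Pparg, were under it. Without the departing genes the list's median log2 fold change was 0.06. Esrra, the gene of estrogen-related receptor alpha, a principal partner of PGC-1alpha, was at 18.02, 17.58 and 19.87 FPKM.

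Of 20 tested AMPK and nutrient kinase genes, Gsk3a fell. This gene of glycogen synthase kinase 3 alpha was at 20.89, 21.38 and 12.56 FPKM in KO PBS 1, KO PBS 2 and KO MPTP 2, a log2 fold change of -0.71 (SE 0.07, adjusted p = 0.00178). Prkag2, an AMPK subunit gene, was at 26.63 FPKM in KO PBS 1, 127.17 in KO PBS 2 and 18.92 in KO MPTP 2. KO PBS 2 stood apart, and Prkag2 did not pass the test (adjusted p = 0.385). Of 22 tested genes of the cytoskeleton, S100 proteins and annexins, S100a6 rose. This calcium-binding protein gene was at 142.93 and 133.42 FPKM after PBS and at 242.61 in KO MPTP 2, a log2 fold change of 0.81 (SE 0.08, adjusted p = 0.00145). S100a8, an alarmin gene of myeloid cells, was at 3.81, 3.68 and 5.76 FPKM and did not pass the test (adjusted p = 0.074). Gsk3a, Prkag2, S100a6 and S100a8 are all departing genes. Thus each called member of the 36 lists of pathways and cell types was a departing gene.

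**Figure D3:**
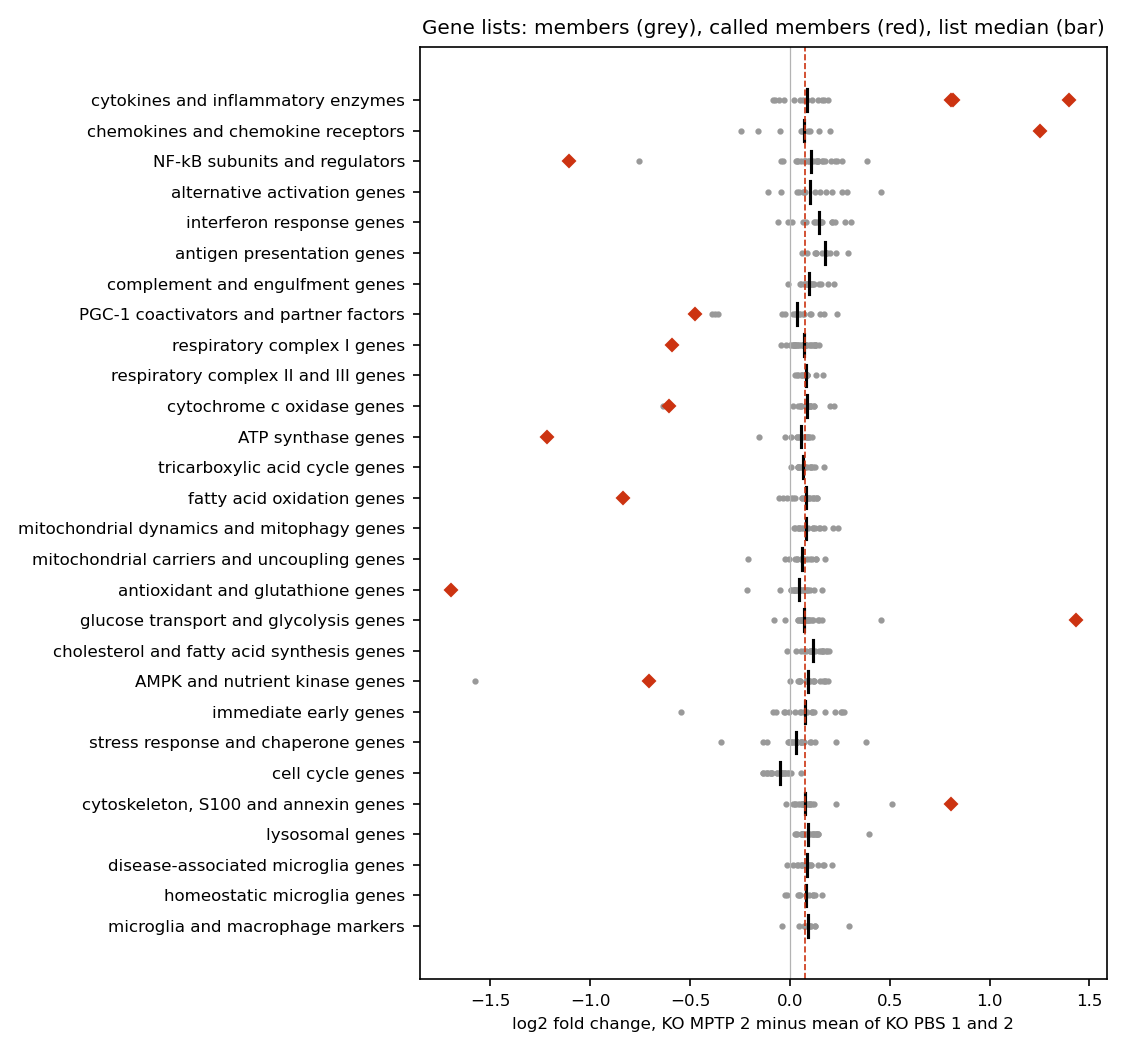
Log2 fold changes of KO MPTP 2 against the mean of KO PBS 1 and 2 are drawn for the lists with at least 10 genes tested. Grey points are genes that were not called, red diamonds called genes and black bars list medians, and the dashed line is the median of all genes tested, 0.08. Most bars lie near the dashed line, the bar of the cell cycle list lies below 0, and the red diamonds lie far from their lists.

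The 23 regular genes that were called formed another group. Of these, 22 rose, by 0.40 to 1.00 on the log2 scale with a median of 0.56, and 1 fell. The nuclear noncoding RNA gene Neat1, the scaffold of paraspeckles, was at 38.40 and 39.43 FPKM after PBS and at 59.49 in KO MPTP 2, a log2 fold change of 0.60 (SE 0.07, adjusted p = 0.00649). Firre, a nuclear noncoding RNA gene of chromosome organization, was at 15.75, 17.29 and 24.86 FPKM, a log2 fold change of 0.56 (SE 0.08, adjusted p = 0.0179). A pair of transcribed pseudogenes of the phosphatidylserine decarboxylase gene rose as well. Pisd-ps1 was at 33.96, 36.36 and 53.00 FPKM, a log2 fold change of 0.58 (SE 0.07, adjusted p = 0.00745). Pisd-ps2 was at 9.02, 9.32 and 14.34 FPKM, a log2 fold change of 0.59 (SE 0.09, adjusted p = 0.0312). Since these copies resemble each other, reads may be split between them. Pde1b, a cyclic nucleotide phosphodiesterase gene, was at 7.78, 9.08 and 13.47 FPKM (log2 fold change 0.62, adjusted p = 0.0312), Pnpla6, a phospholipase gene, at 8.72, 9.48 and 14.35 FPKM (0.60, adjusted p = 0.0401), and Rgs11, a regulator of G protein signaling, at 7.87, 8.53 and 12.69 FPKM (0.57, adjusted p = 0.0312). Dtx3, an E3 ubiquitin ligase gene, was at 13.85, 14.83 and 21.55 FPKM (0.56, adjusted p = 0.0418), and the expressed sequence AI480526 at 2.70, 3.85 and 6.52 FPKM (0.83, adjusted p = 0.0417). KO MPTP 2 was the high profile in each, which a call requires. The gap between the PBS profiles was widest, relative to their level, in AI480526. Neat1 kept its call in 11 of 17 alternative analyses, Pisd-ps1 in 8, Firre in 7, Pde1b in 5, and Pnpla6, Pisd-ps2, Dtx3 and Rgs11 in 4 each. AI480526 kept its call in 3 of 16. Under median rescaling 3 regular genes remained called higher and 4 departing ones.

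Noncoding and splicing-related genes were then followed as lists, which were chosen after these values had been seen. Both lists include genes already called, so their counts and medians are descriptions and do not test these classes. All 4 nuclear noncoding RNAs lay above both PBS values in KO MPTP 2, with Malat1 at 824.07, 847.21 and 973.95 FPKM and Xist at 75.73, 75.75 and 90.16 FPKM beside Neat1 and Firre, and their median log2 fold change was 0.41, or 0.32 after median rescaling. Of all genes tested, 69.8% lay above both, or 33.7% after median rescaling. Of 22 genes of splicing kinases, SR proteins and related factors, 2 rose, none fell, and 19 lay above both PBS values, or 16 after median rescaling. The median was 0.20, or 0.11 after median rescaling. Rsrp1, which encodes an arginine- and serine-rich protein, was at 88.93, 96.89 and 136.88 FPKM (log2 fold change 0.56, adjusted p = 0.0116). Clk4, a kinase gene of SR proteins, was at 12.84, 13.18 and 17.85 FPKM (0.43, adjusted p = 0.0477), and its relative Clk1 at 20.02, 22.78 and 29.59 FPKM did not pass the test (adjusted p = 0.0624). The call of Rsrp1 held in 7 of 17 alternatives and that of Clk4 in 3, and both were lost under median rescaling. The SR protein genes Srsf3, at 69.44, 75.83 and 73.46 FPKM, and Srsf9, at 35.26, 37.54 and 36.69 FPKM, lay between the PBS values. Over all genes, 328 exceeded the higher PBS value by at least 0.25 on the log2 scale. Protein-coding genes made up 80.2% of these, against 95.2% of the genes tested, and noncoding RNA genes and pseudogenes 11.6%, against 2.96%. Of the 32 genes that lay as far below the lower PBS value, 81.25% were protein-coding and 6.25% noncoding RNA genes or pseudogenes. The smaller protein-coding share was thus not particular to the rise. The 328 genes also had a lower median PBS level, 5.87 FPKM against 9.84 for all genes tested.

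Lars2, which encodes the mitochondrial leucyl-tRNA synthetase, was the regular gene that fell. It was at 979.71 and 862.08 FPKM after PBS and at 557.50 in KO MPTP 2, a log2 fold change of -0.72 (SE 0.12, adjusted p = 0.0353). Its level in WT PBS 1 and WT PBS 2 was 730.93 and 892.51 FPKM, a wider spread than that of the KO PBS pair. In WT MPTP 1 it was 667.63 FPKM. The call was lost without either KO PBS profile and under both rescalings, and held in 7 of 17 alternatives.

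Most genes had slightly higher values in KO MPTP 2. It lay above both PBS values in 7395 genes (69.8%) and below both in 732 (6.91%), and the median log2 fold change was 0.08. After median rescaling these shares were 33.7% and 32.6%. The sum of all rows was 409278 FPKM in KO MPTP 2 against 388861 and 389883 after PBS, and the upper quartile of the rows was 1.45 against 1.25 and 1.30 FPKM. In bulk RNA, a change in the share of a cell type and a change per cell cannot be told apart. The summed level of the 12 macrophage and microglia markers was 2782, 2606 and 2835 FPKM in KO PBS 1, KO PBS 2 and KO MPTP 2, and that of the 10 border macrophage and monocyte markers 427, 391 and 432. The part of these sums in the shift was not tested. Setting size in place of the test, KO MPTP 2 exceeded the nearer PBS value by at least 0.5 on the log2 scale in 25 genes (0.236%), 6 of them departing, and fell short of it by as much in 11 (0.104%), 8 of them departing. At a margin of 1 there were 3 genes on either side, all departing. The SD of the log2 difference between profiles was 0.11 for KO PBS 2 against KO PBS 1, 0.12 for KO MPTP 2 against KO PBS 1 and 0.12 for KO MPTP 2 against KO PBS 2. Genes at least 1 log2 unit apart numbered 2, 10 and 7 in the same order of pairs.

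**Figure D4:**
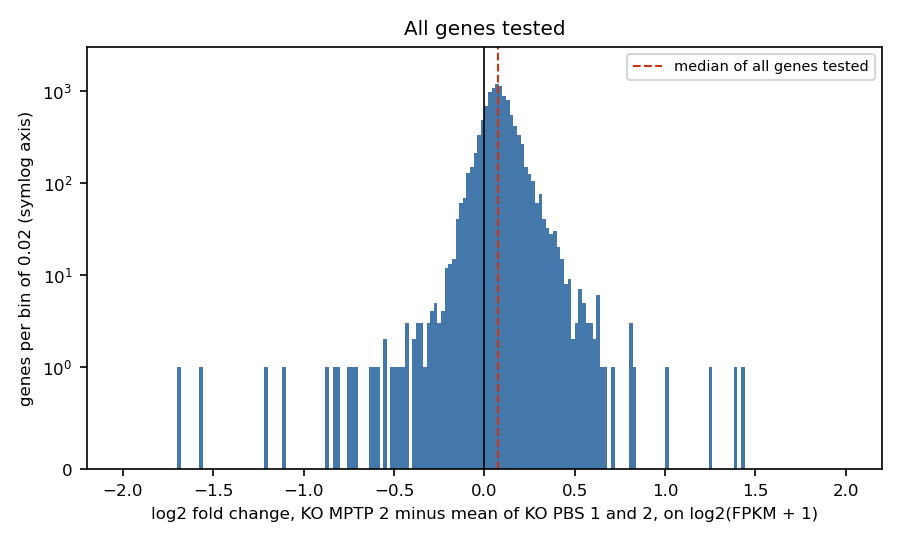
The histogram counts the 10601 genes tested in bins of 0.02 log2 fold change, KO MPTP 2 minus the mean of KO PBS 1 and 2, on an axis that is linear up to 1 and logarithmic above. The dashed line marks the median of 0.08, to the right of 0, and the few genes beyond 1 in either direction are set apart from the rest.

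Several lists had no gene called by limma. In limma, an unadjusted p under 0.05 was reached by 6 of 13 antigen presentation genes and 3 of 16 interferon response genes. It was reached by 1 of 24 lysosomal genes, 3 of 20 disease-associated microglia genes and 0 of 23 cell cycle genes. Over all 10601 genes tested, 1148 reached it, and 522 after median rescaling. All 13 tested antigen presentation genes lay above both PBS values, as did 69.8% of all genes tested. The list's median log2 fold change was 0.18. After median rescaling 11 of the 13 lay above both, as did 33.7% of all genes tested, and the list's median was 0.09. Cd74, the invariant chain gene of class II molecules, was at 209.45, 203.79 and 237.61 FPKM (adjusted p = 0.365) and B2m, the light chain gene of class I molecules, at 1030.39, 974.99 and 1064.55 FPKM (adjusted p = 0.677). Of 16 interferon response genes, 13 lay above both PBS values, with a median of 0.15, or 0.07 after median rescaling. Ifitm2, an antiviral membrane protein gene, was at 190.73, 180.01 and 196.33 FPKM. Of 24 lysosomal genes, 23 lay above both, with a median of 0.09, or 0.01 after median rescaling, and the cathepsin D gene Ctsd was at 1354.55, 1316.78 and 1418.31 FPKM. Of 23 cell cycle genes, 19 lay between the PBS values, 4 below both and none above both, and the median was -0.05. After median rescaling 32.6% of all genes tested lay below both, as did 19 of the 23 cell cycle genes, with a median of -0.13. Their summed level was 478 FPKM in KO PBS 1, 549 in KO PBS 2 and 495 in KO MPTP 2, so KO PBS 2 was the highest and KO MPTP 2 close to KO PBS 1. The proliferation gene Mki67 was at 20.90, 23.47 and 20.71 FPKM. Arg1, the arginase gene of alternatively activated macrophages, was at 2697.70, 2478.48 and 2503.85 FPKM, and the microglial disease gene Spp1 at 3239.40, 3014.07 and 3096.91 FPKM. In both, KO MPTP 2 lay between the PBS profiles, and of 20 disease-associated microglia genes none was called.

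The same contrast in WT, WT MPTP 1 against WT PBS 1 and 2 in the same fit, called 5 genes higher (0.0472%) and 18 lower (0.17%). Unlike in KO, a call in WT needed only an adjusted p under 0.05, not a value outside both PBS values. WT MPTP is a single profile too. WT MPTP 2 lay 2.0% above WT MPTP 1 within 0.0101 FPKM in all but 28 of 67355 rows. Sod1 was among the exceptions, at 80.00 FPKM in WT MPTP 1 and 53.00 in WT MPTP 2. Column 3 followed columns 1 and 2 in all but 1 row in WT PBS and in every row in WT MPTP. Of the 14 departing genes called in KO, 12 were called in WT in the same direction, and of the 23 regular genes 0. Sod1 fell by 1.08 on the log2 scale in WT (SE 0.06, adjusted p = 9.73e-05), Rela by 1.04 (SE 0.08, adjusted p = 0.000361) and Ndufs8 by 0.61 (SE 0.08, adjusted p = 0.0136). Slc2a1 rose by 0.81 in WT (SE 0.07, adjusted p = 0.000958), Tnf by 0.79 (SE 0.11, adjusted p = 0.0136) and Nos2 by 1.08 (SE 0.10, adjusted p = 0.00167). Ccl2 and Cox7b were the departing genes called in KO that did not pass the test in WT. The difference of the MPTP effect between the genotypes passed the test in none of these genes. For Sod1 the KO effect was lower by 0.62 (SE 0.09) and for Slc2a1 higher by 0.62 (SE 0.10), each with an adjusted p of 0.0816, and for Tnf higher by 0.60 (SE 0.15, adjusted p = 0.287). For Il1b the difference was 0.01 (SE 0.14).

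**Figure D5:**
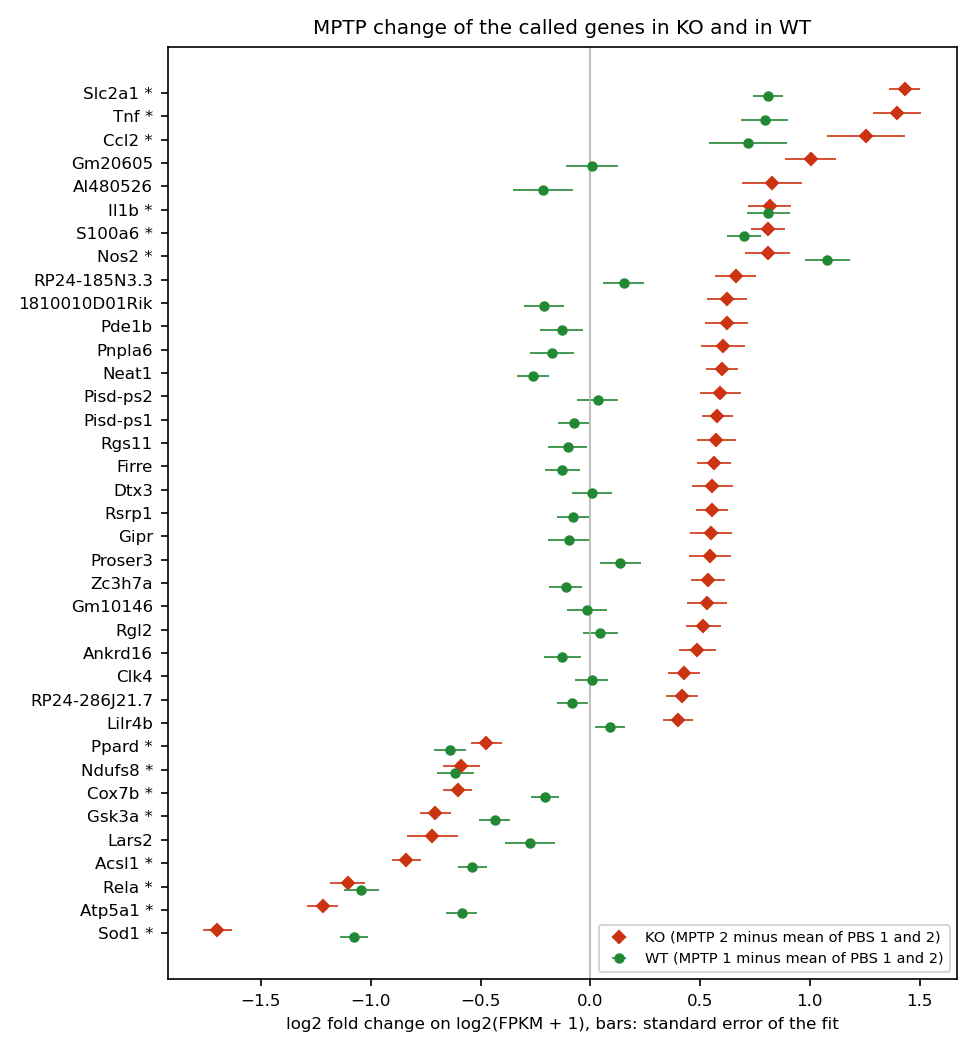
For the 37 called genes, the log2 fold change after MPTP is drawn in KO (diamonds) and in WT (circles), with the standard error of the fit as bars and stars on departing genes. Starred genes lie on the same side of 0 in both genotypes, whereas most regular genes lie near 0 in WT.

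The test of the difference between genotypes called 3 genes (0.0283%), and 625 had an unadjusted p under 0.05. Neat1, which rose in KO, was at 44.24, 47.47 and 38.08 FPKM in WT PBS 1, WT PBS 2 and WT MPTP 1, and its MPTP effect was 0.86 higher in KO than in WT (SE 0.10, adjusted p = 0.0313). The other 2 rested on changes in WT. Cebpb, which encodes a transcription factor of myeloid differentiation, was at 55.86, 58.55 and 57.06 FPKM in KO PBS 1, KO PBS 2 and KO MPTP 2, with KO MPTP 2 between the PBS profiles, and at 169.88, 152.85 and 75.13 FPKM in WT PBS 1, WT PBS 2 and WT MPTP 1. The difference of its effects was 1.09 (SE 0.11, adjusted p = 0.0162), and it is a departing gene. Atp5h, which encodes subunit d of the ATP synthase, was at 128.93, 135.14 and 141.33 FPKM in KO and at 224.57, 222.88 and 143.62 FPKM in WT, in the same order of groups, with a difference of 0.73 (SE 0.09, adjusted p = 0.0433). The 3 calls did not persist: none was kept without KO PBS 1 or without WT PBS 1, and 1 of the 3 was kept without KO PBS 2 or without WT PBS 2. Under median rescaling and under quantile normalization limma called 0 genes for this difference, with 528 and 497 at an unadjusted p under 0.05.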

How the data were processed

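The authors deposited 1 table of 67355 rows and 12 columns. The unit is not named in a header. FPKM was inferred for the deposited values, since the submitters' processing notes name Cufflinks, beside CASAVA 1.5, Bowtie 0.12.7, TopHat and the build mm9, with no role or order. The sources used here do not give the annotation or the filters. The files hold no read depth, so values have no counting interval. 1 row with a cell that is not a number was left out. Rows were summed per symbol (20265 of 21135 matched a RefSeq symbol).

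limma 3.58.1 in R 4.3.3 was applied with its trend option to log2(FPKM + 1), with 1 mean per group, Benjamini-Hochberg adjustment, 2 residual and 8.17 prior degrees of freedom. The procedure was tested on simulated data. No source says that samples are separate animals, so p-values measure only how far profiles differ, which may be technical.

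Named genes were, among those called, the 15 that rose most and the 15 that fell most, up to 4 called members of each of 36 lists or else the 2 of highest mean, Ppargc1a, departing genes and up to 5 genes per direction for the difference between genotypes. Predicted genes were counted and not named. Other genes were named after their values were seen. Members and lists were chosen with earlier results of these data known. Alternatives were other pseudocounts, filters, scalings and sets of profiles.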

Additional observations from a re-analysis of the deposited data

Results flagged for a closer look

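The MPTP effect differed between KO and WT, by the test of the difference over all genes, in Cebpb by 1.09, in Neat1 by 0.86 and in Atp5h by 0.73 on the log2 scale, each as KO minus WT. Cebpb and Atp5h were near their PBS values in KO MPTP 2, and Neat1 was above them. None of the 3 differences passed the test without KO PBS 1, without WT PBS 1, with the replicate block, or after median rescaling or quantile normalization. The treatment behind KO PBS 2 is uncertain, which touches all 3 values. With at most 3 profiles in a group, no group was large enough to look for single samples far from the rest.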

How the results depend on the processing

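Pseudocounts of 0.1 and 0.5, a filter at 5 FPKM and leaving out WT MPTP 1 left the counts of genes called in KO within 1.5 times of 28 higher and 9 lower. Higher calls numbered 13 with no filter on low values (0 of them among the 28; 1 lower), 7 with median rescaling, 3 with quantile normalization, 6 with the KO profiles alone, 2 with KO PBS 2 counted as KO MPTP (0 lower), 6 with departing genes left out (0 lower), 7 with all 12 columns as libraries (14 lower) and 9 with KO MPTP 1 in place of KO PBS 2 and counted as KO MPTP, an alternative chosen after seeing the data. Leaving out 1 profile gave 5 to 28 higher, 6 to 9 lower and 1 to 3 differences between genotypes, of which 0 to 1 were among the 3. The fit with a replicate block called 14 higher, 9 lower and 0 differences. The labels do not say what a replicate number shares, and the deviations of replicate 1 from replicate 2 correlated at 0.23 over genes between WT PBS and KO PBS. The 3 differences between genotypes became 0 with median rescaling, quantile normalization or departing genes left out, 5 with KO PBS 2 counted as KO MPTP and 124 with all 12 columns. Genes past a margin of 0.5 numbered 25 and 11, and 328 and 32 at 0.25, 3 and 3 at 1, 54 and 19 with a pseudocount of 0.1, and 13 higher with median rescaling. Departing genes were 14 of 37 calls and 11 of 13 without either WT PBS profile. No setting reversed any of the 24 called genes whose direction was followed through the settings. Depth is unknown, so low values carry no counting error here.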
